A study of Homo sapiens with 4 samples.

Results

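The nuclear-encoded respiratory chain genes were taken from the deposited count table by symbol. A row was a member when its symbol began with NDUF, UQCR, COX followed by a digit, or ATP5, or was SDHA, SDHB, SDHC or SDHD, and when it had 10 or more counts in at least 2 of the 4 libraries. Of 106 rows with such a symbol, 101 passed the count minimum, out of 16839 gene rows in the table. The members fell into complex I (47 rows), complex II (4), complex III (10), complex IV (23) and complex V (17). By role, 75 encode structural subunits, 16 encode assembly factors and 10 are other rows, which are pseudogenes, antisense RNAs and related genes that share the naming pattern. The symbols are those of the table, several of which have since been replaced, so that ATP5A1 is the gene now called ATP5F1A.

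The RNA came from D458, a line of human medulloblastoma cells in long use. The shSETD8 group had 2 libraries from cells with a lentiviral hairpin against SETD8, labelled as an 80% knockdown, and the shNull group had 2 libraries from cells with a non-targeting hairpin, labelled as wild type for SETD8. Both groups went through transduction in polybrene, growth in the same pyruvate-supplemented medium and 14 days of puromycin at 1 µg/mL. The libraries of a group are described as separate clones, so their spread includes differences between clones, and which of several SETD8 hairpins a clone carried is a detail that the sources used here do not give. SETD8, also named KMT5A, encodes the methyltransferase that places a single methyl group on lysine 20 of histone H4. The comparison asks which transcripts differ when this enzyme is lowered.

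The respiratory chain sits in the inner mitochondrial membrane. Complex I takes electrons from NADH and complex II takes them from succinate, both pass them to ubiquinone, complex III moves them on to cytochrome c, and complex IV hands them to oxygen. The proton gradient built by complexes I, III and IV drives complex V, the ATP synthase. Except for complex II, which is wholly nuclear-encoded, each complex joins subunits encoded in the nucleus with subunits encoded in mitochondrial DNA, and all of them need assembly factors that do not remain in the finished enzyme. The mitochondrially encoded subunits were not analysed here.

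Total counts were 52627366 and 49064974 in the shSETD8 libraries and 44527591 and 40908334 in the shNull libraries. SETD8 itself stood at 14.0 and 26.4 CPM (normalised counts, scaled to TMM library sizes) in shSETD8, against 38.9 and 41.6 CPM in shNull, which placed the shSETD8 libraries at 34.7% and 65.5% of the shNull mean. Its log2 fold change was -0.998 ± 0.303 (SE; adjusted p = 0.421 by the edgeR quasi-likelihood test, 0.055 by DESeq2). Markers of group 3 medulloblastoma and its photoreceptor programme were present in all libraries, with a summed level of 6029 and 6072 CPM in shSETD8 and 6170 and 5859 CPM in shNull over 7 measured genes of 9 listed. Of the other marker lists, the 4 measured epithelial genes of 5 summed to 4.02 and 10.8 CPM in shSETD8, against 0.272 and 0.409 CPM in shNull, from KRT8 and KRT18, while CDH1 was at most 0.153 CPM and EPCAM at most 0.0962 CPM in any library. The 5 measured fibroblast genes of 7 summed to 41.3 and 50.6 CPM in shSETD8 and to 70.6 and 61.2 CPM in shNull, and the blood and endothelial lists to at most 2.36 and 0.123 CPM. Within the fibroblast list the genes went both ways. DCN was at 18.0 and 27.6 CPM in shSETD8 and at 41.4 and 35.2 CPM in shNull. LUM was at 10.1 and 7.05 CPM in shSETD8 and at 21.4 and 15.7 CPM in shNull. COL1A1, in contrast, was at 3.81 and 4.81 CPM in shSETD8 and at 1.88 and 1.97 CPM in shNull. PDGFRB was at 9.31 and 11.1 CPM in shSETD8 and at 5.73 and 8.18 CPM in shNull. The part of these cells' markers in the results below was not tested, and in bulk RNA fewer cells of a type and less RNA per cell cannot be told apart.

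No respiratory chain gene passed edgeR's quasi-likelihood test in shSETD8 against shNull, DESeq2 called NDUFAF3 alone, and no member doubled or halved its level. Of the 101 members, 71 had a higher estimate in shSETD8, by small amounts, with log2 fold changes from -0.38 for COX17, a copper carrier for complex IV counted at under 1 CPM, to 0.48 for ATP5A1, the alpha subunit of ATP synthase. The median was 0.095 on the log2 scale, beside 0.01 over all 14546 tested genes, and 70.3% of members lay above 0, beside 51.2% of all tested genes. A difference of at least 1.2-fold in either direction was estimated for 11 members.

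edgeR's quasi-likelihood test, adjusted by Benjamini-Hochberg over all tested genes at 0.05, called 0 of 101 members and 0.0% of all tested genes. The lowest adjusted p of a member was 0.365. At an unadjusted p under 0.05 there were 7 members, all higher in shSETD8, or 6.93%, where the share over all tested genes was 10.8% in either direction, with 5.65% for higher genes and 5.16% for lower genes. DESeq2 called 1 member, NDUFAF3, beside 1.88% of all tested genes. Both shSETD8 libraries lay above both shNull libraries in 35 members (34.7%, against 22.9% of all tested genes) and below them in 6 members (5.94%, against 22.4%), and the groups overlapped in the other 60. The p-values measure the spread between these clones only.

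Leaving out single libraries moved these results. The group that lost a library then had 1, and the spread in the fit came from the other group's pair alone. Calls in these fits therefore do not measure the spread between clones of the reduced group. Without shSETD8 replicate 1, edgeR called NDUFAF3 among the members and 9.55% of all tested genes. Without shSETD8 replicate 2 it called 7 members, of which NDUFAF3, ATP5A1, COX19 and NDUFV2 were higher and NDUFA1, UQCR10 and UQCRHL lower, and 17.2% of all tested genes. Without either shNull library it called none. The median over members was 0.137 without shSETD8 replicate 1 and 0.024 without shSETD8 replicate 2, and 0.133 and 0.034 without shNull replicate 1 and 2.

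**Figure D1:**
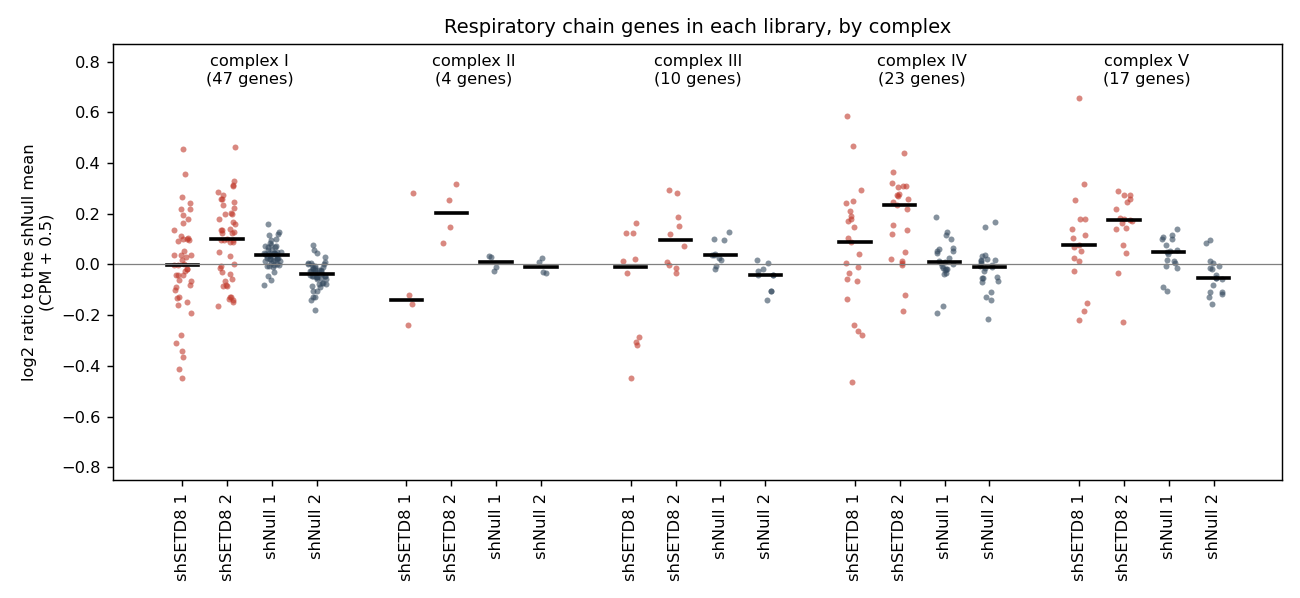
Each point is a member, drawn for each library as the log2 ratio of its CPM to the shNull mean with 0.5 CPM added, in columns by complex with shSETD8 in red and shNull in dark blue. The black lines are medians, which over all members were 0.02 in shSETD8 replicate 1 and 0.14 in shSETD8 replicate 2. In complexes IV and V, with assembly factors and other rows counted, the medians of both shSETD8 libraries lie above 0.

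By complex, the median log2 fold change was 0.14 in complex V, with 14 of 17 members higher, and 0.14 in complex IV, with 17 of 23. Complex III had a median of 0.056 with 6 of 10 higher, complex I 0.045 with 31 of 47 and complex II 0.043 with 3 of 4. Without shSETD8 replicate 2 the medians of complexes I, II and III turned to -0.0011, -0.14 and -0.01, and without shNull replicate 2 that of complex III turned to -0.06. Complexes IV and V kept medians above 0 with any library left out, between 0.086 and 0.244 and between 0.095 and 0.172. For complex IV this held over all 23 rows and not for its subunits in each library. Against the shNull mean, its 11 structural subunits had a median log2 ratio of -0.0086 in shSETD8 replicate 1, with 5 above 0. In shSETD8 replicate 2 it was 0.26, with 10 above 0. Its 9 assembly factors had medians of 0.21 and 0.049 in shSETD8 replicates 1 and 2. The order of the complexes changed between the fits with a library left out, and differences between complexes were not tested.

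Summed over its structural subunits, complex V held 4612 and 4717 CPM in shSETD8, against 4213 and 3950 CPM in shNull, so that both shSETD8 libraries lay above both shNull libraries. This separation of the sums rested on ATP5A1. Without it the sums were 3401 and 3789 CPM in shSETD8 and 3404 and 3224 CPM in shNull, which overlapped by 2.24 CPM, a check added after the values were seen. Taken 1 by 1, 8 of these 14 subunits (57.1%, against 22.9% of all tested genes) had both shSETD8 libraries above both shNull libraries. In the other 6 the groups overlapped. The sums of the other complexes also overlapped. Complex I held 3047 and 3379 CPM in shSETD8 and 3172 and 3007 CPM in shNull, and complex IV 1940 and 2282 CPM in shSETD8 and 2022 and 1891 CPM in shNull. Complex III held 1243 and 1472 CPM in shSETD8 and 1343 and 1277 CPM in shNull, and complex II 450.2 and 550.8 CPM in shSETD8 and 478.8 and 473.6 CPM in shNull. In all 5 complexes shSETD8 replicate 1 was below shSETD8 replicate 2.

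In complex I, the nuclear core subunits include those that carry the flavin and the iron-sulfur clusters. All 7 core subunits had estimates above 0, with a median of 0.23, and in 6 of them (85.7%, against 22.9% of all tested genes) both shSETD8 libraries lay above both shNull libraries. NDUFV1, which binds NADH and the flavin, was at 198.4 and 219.7 CPM in shSETD8 and at 175.8 and 178.4 CPM in shNull, with a log2 fold change of 0.24 ± 0.09 (SE, adjusted p = 0.463, edgeR). NDUFS3 was at 84.7 and 79.6 CPM in shSETD8 and at 71.0 and 69.6 CPM in shNull, and NDUFS8, an iron-sulfur subunit next to the ubiquinone site, at 68.5 and 77.6 CPM in shSETD8 and at 63.4 and 61.1 CPM in shNull. In these genes the lower shSETD8 library was still above the higher shNull library. NDUFS1, the large iron-sulfur subunit, was the core subunit whose groups overlapped, at 124 and 160.4 CPM in shSETD8 and 139 and 139 CPM in shNull.

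The 30 accessory subunits of complex I had a median of 0.031, with 19 above 0 (63.3%, against 51.2% of all tested genes). Both shSETD8 libraries were higher in 7 of them (23.3%, close to the 22.9% of all tested genes), both were lower in 3 (10.0%, against 22.4%), and 20 overlapped. The difference between core and accessory subunits was not tested. The 12 NDUFA subunits had a median of -0.03 with 5 above 0, and the 11 NDUFB subunits, which belong to the membrane arm, a median of 0.11 with 9 above 0. The 3 subunits with both shSETD8 libraries lower were NDUFA1, NDUFA7 and NDUFA13. NDUFA1, a small membrane-arm subunit, was at 125.9 and 160.9 CPM in shSETD8 and at 172 and 163.1 CPM in shNull, a log2 fold change of -0.22 ± 0.14 (SE, adjusted p = 0.574, edgeR). NDUFA7 was at 53.2 and 60.0 CPM in shSETD8 and at 68.0 and 64.2 CPM in shNull, with -0.22 ± 0.11 (SE, adjusted p = 0.505, edgeR). For NDUFA1 shSETD8 replicate 1 stood well below the other libraries, while for NDUFA7 the shSETD8 libraries were closer together.

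NDUFAF3, an assembly factor for early intermediates of complex I, had the lowest p of all members. Its level was 50.4 and 50.6 CPM in shSETD8 and 35.1 and 38.1 CPM in shNull, or 50.5 ± 0.115 and 36.6 ± 2.15 CPM by group (SD, n = 2 each). The shSETD8 libraries were almost equal and both above shNull. The log2 fold change was 0.46 ± 0.11 (SE), with an unadjusted p of 0.0062, an edgeR adjusted p of 0.365 and an adjusted p of 0.0475 in DESeq2. With single libraries left out the log2 fold change lay between 0.41 and 0.52. The other 6 assembly factors of complex I ranged from -0.13 for NDUFAF2 to 0.12 for NDUFAF1. NDUFAF4, which acts together with NDUFAF3, was at 42.0 and 39.5 CPM in shSETD8 and 43.6 and 40.2 CPM in shNull, so its groups overlapped.

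**Figure D2:**
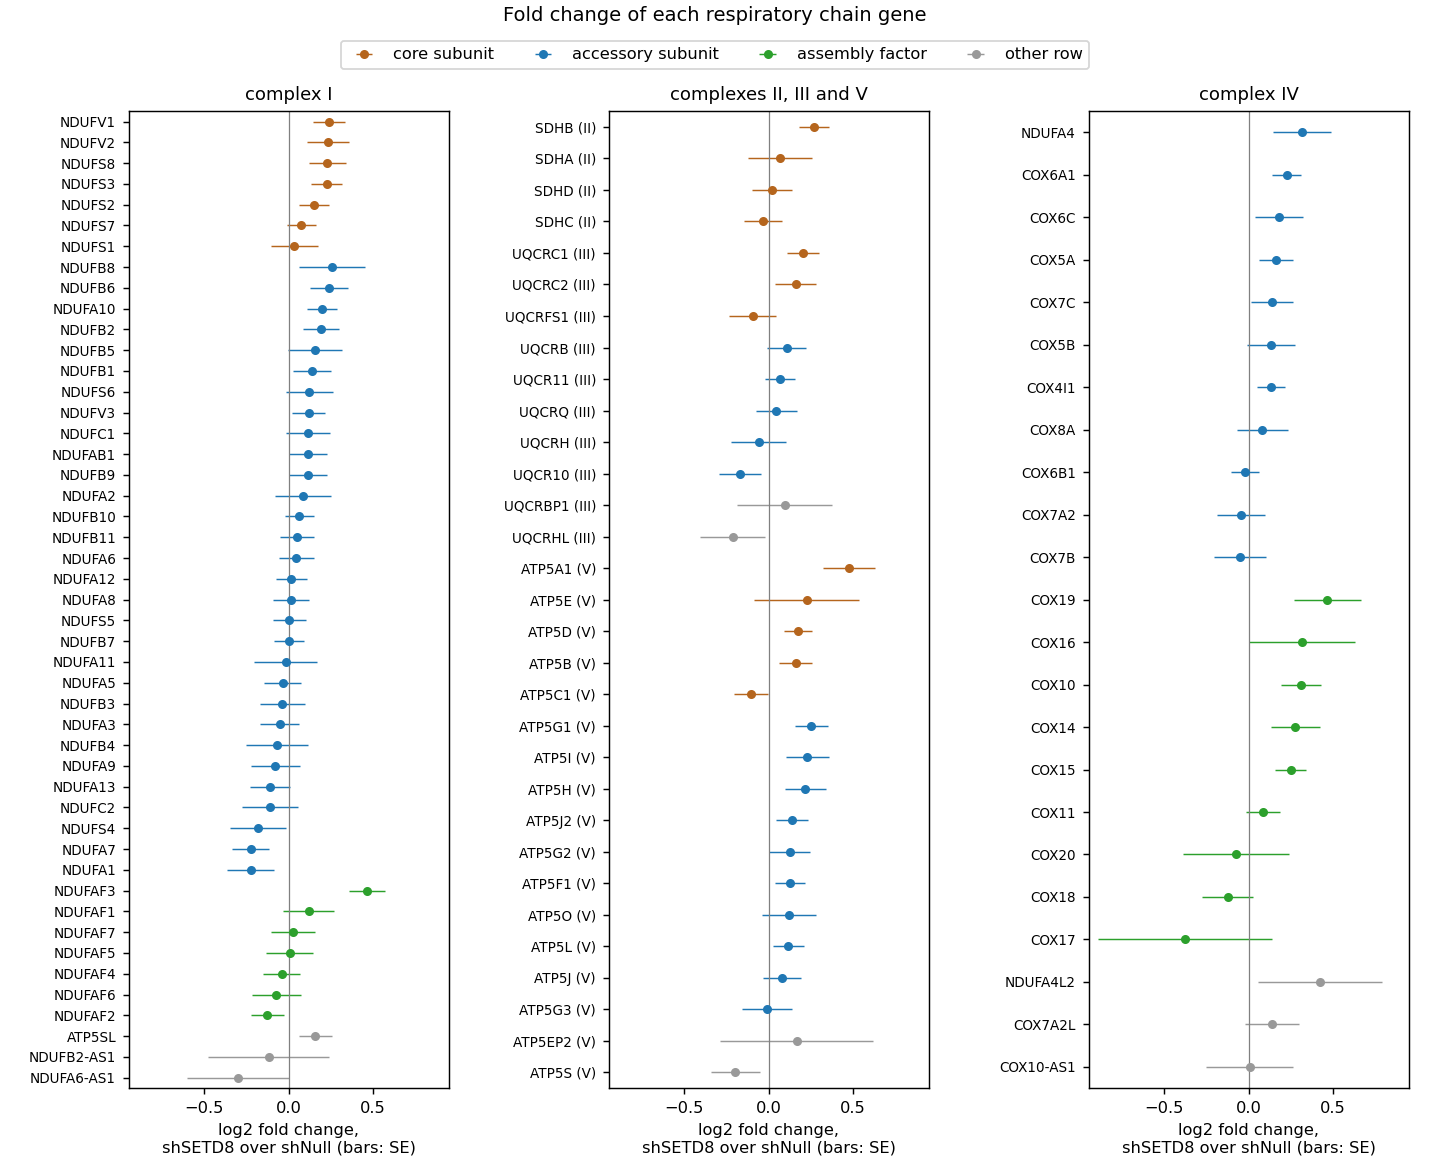
Points are the log2 fold changes, shSETD8 over shNull, of all 101 members, with bars of 1 SE, grouped by complex and coloured by role. All 7 core subunits of complex I and 13 of the 15 structural subunits of complex V lie above 0, and ATP5A1, COX19 and NDUFAF3 lie furthest to the right of all members.

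Complex II, succinate dehydrogenase, also works in the tricarboxylic acid cycle. SDHB, its iron-sulfur subunit, was at 110.9 and 108.6 CPM in shSETD8 and at 89.4 and 92.7 CPM in shNull, with no overlap and a log2 fold change of 0.27 ± 0.09 (SE, unadjusted p = 0.0253, adjusted p = 0.424, edgeR). SDHA, the flavin subunit, was at 133 and 196.6 CPM in shSETD8 and at 156.6 and 158.5 CPM in shNull. Of the membrane anchors, SDHC was at 123.9 and 146.4 CPM in shSETD8 and at 141.5 and 134.9 CPM in shNull. SDHD was at 82.2 and 99.2 CPM in shSETD8 and at 91.3 and 87.6 CPM in shNull. In all of SDHA, SDHC and SDHD, shSETD8 replicate 1 was the lowest library and shSETD8 replicate 2 the highest, so the groups overlapped. The log2 fold changes were 0.07 ± 0.19 for SDHA, -0.03 ± 0.11 for SDHC and 0.02 ± 0.12 for SDHD (SE), and each changed sign when a library was left out, with ranges from -0.24 to 0.32, from -0.16 to 0.08 and from -0.12 to 0.15.

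In complex III, the core proteins UQCRC1 and UQCRC2 had estimates above 0 and the Rieske iron-sulfur protein UQCRFS1 had one below. UQCRC1 was at 223.2 and 249.1 CPM in shSETD8 and at 202 and 207.7 CPM in shNull, with no overlap and a log2 fold change of 0.20 ± 0.10 (SE, adjusted p = 0.497, edgeR). UQCRC2 was at 226.8 and 275.8 CPM in shSETD8 and at 231 and 218.5 CPM in shNull, so its groups overlapped. UQCRFS1 was at 102 and 131 CPM in shSETD8 and 126.1 and 122.7 CPM in shNull, with shSETD8 replicate 1 lowest and shSETD8 replicate 2 highest. The 5 accessory subunits ranged from -0.17 for UQCR10 to 0.11 for UQCRB.

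UQCRH, the hinge protein near cytochrome c, and its intronless copy UQCRHL are shown base by base because a read from one can match the other. Both coding sequences are 273 bases long without the stop codon, and they differ at 4 bases, shown in capitals (GENCODE v29 on GRCh38, 5′ to 3′ on the gene's strand, with the span of the coding region):
UQCRH (chr1:46303767-46316581, plus strand): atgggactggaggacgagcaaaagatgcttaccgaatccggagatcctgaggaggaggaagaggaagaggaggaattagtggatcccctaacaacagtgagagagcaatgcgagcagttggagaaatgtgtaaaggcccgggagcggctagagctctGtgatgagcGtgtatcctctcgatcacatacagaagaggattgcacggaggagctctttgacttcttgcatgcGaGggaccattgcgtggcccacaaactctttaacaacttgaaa
UQCRHL (chr1:15807377-15807649, minus strand): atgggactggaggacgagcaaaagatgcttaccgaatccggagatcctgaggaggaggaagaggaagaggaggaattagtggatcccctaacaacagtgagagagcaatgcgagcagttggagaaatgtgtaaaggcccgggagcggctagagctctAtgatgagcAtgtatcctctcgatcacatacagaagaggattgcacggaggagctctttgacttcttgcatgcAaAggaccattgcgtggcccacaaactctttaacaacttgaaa
Of the 50-base windows of either sequence, the read length used, 54.5% occur in both. The UQCRH row was at 227 and 312 CPM in shSETD8 and at 289 and 273 CPM in shNull, and the UQCRHL row at 12.9 and 17.8 CPM in shSETD8 and at 18.2 and 17.5 CPM in shNull. In both rows shSETD8 replicate 1 was the lowest library and the groups overlapped, with log2 fold changes of -0.06 ± 0.16 for UQCRH and -0.21 ± 0.19 for UQCRHL (SE). How the counting split reads between these rows is a step that the sources used here do not describe, so the level of UQCRHL is uncertain.

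Complex IV, cytochrome c oxidase, had 11 structural subunits in the list, 9 assembly factors and 3 other rows. The structural subunits had a median of 0.13 with 8 above 0, and 3 of them, COX4I1, COX5A and COX6A1, had both shSETD8 libraries above shNull (27.3%, near the 22.9% of all tested genes). COX6A1, the form of subunit VIa found outside heart and skeletal muscle, was at 217 and 227 CPM in shSETD8 and at 192 and 188 CPM in shNull, with a log2 fold change of 0.23 ± 0.09 (SE, unadjusted p = 0.0432, adjusted p = 0.457, edgeR). COX4I1, the widely expressed form of subunit IV, was at 298 and 308 CPM in shSETD8 and at 277 and 276 CPM in shNull, with 0.13 ± 0.08 (SE, adjusted p = 0.584, edgeR). NDUFA4, once placed in complex I and now counted as a subunit of complex IV, was at 146 and 175 CPM in shSETD8 and at 147 and 111 CPM in shNull, and its groups overlapped, with 0.32 ± 0.17 (SE, adjusted p = 0.530, edgeR). Leaving out shNull replicate 1 gave 0.53 for this gene, and leaving out shNull replicate 2 gave 0.13.

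The other small subunits named here lay close to 0. The log2 fold changes were -0.02 ± 0.08 for COX6B1, -0.05 ± 0.14 for COX7A2, -0.05 ± 0.15 for COX7B and 0.08 ± 0.15 for COX8A (SE), with overlapping groups in each, and all but COX6B1 changed sign when a library was left out. The muscle, lung or testis forms that the naming rule also caught were near the detection limit. COX4I2 had 0 and 10 counts in shSETD8 and 1 and 2 counts in shNull, COX6B2 had 4 and 4 counts in shSETD8 and 3 and 0 counts in shNull, and COX7A1 had 8 and 3 counts in shSETD8 and 4 and 5 counts in shNull. These rows, and the pseudogene NDUFAF4P1 and the copy ATP5L2, were under the count minimum and are not members. COX7A2L, which takes part in joining complexes III and IV into supercomplexes, was at 124.8 and 161.3 CPM in shSETD8 and at 141 and 118.9 CPM in shNull, and NDUFA4L2, a paralog of NDUFA4 that hypoxia induces in other cells, at 0.934 and 0.860 CPM in shSETD8 and at 0.544 and 0.794 CPM in shNull.

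Among the assembly factors of complex IV the median was 0.25, with 6 of 9 above 0 and 4 with both shSETD8 libraries higher (44.4%, against 22.9% of all tested genes). COX10 and COX15, which act in turn to make heme A for the catalytic subunit, lay on the same side. COX10 was at 28.6 and 31.2 CPM in shSETD8 and at 23.8 and 24.5 CPM in shNull, with 0.31 ± 0.12 (SE, unadjusted p = 0.0436, adjusted p = 0.457, edgeR). COX15 was at 73.8 and 73.4 CPM in shSETD8 and at 61.0 and 62.8 CPM in shNull, with 0.25 ± 0.09 (SE, unadjusted p = 0.0395, adjusted p = 0.456, edgeR). The groups did not overlap for either gene. COX19, a small protein of the intermembrane space involved in copper delivery, was at 10.66 and 8.499 CPM in shSETD8 and at 6.98 and 6.88 CPM in shNull, with 0.47 ± 0.20 (SE, adjusted p = 0.478, edgeR). COX14 was at 13.9 and 15.1 CPM in shSETD8 and at 11.9 and 12.1 CPM in shNull. COX18, which inserts part of the COX2 protein into the membrane, was at 20.1 and 24.8 CPM in shSETD8 and at 23.78 and 25.04 CPM in shNull, so its groups overlapped.

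In complex V, 13 of 15 structural subunits had estimates above 0, and in 9 (60.0%, against 22.9% of all tested genes) both shSETD8 libraries lay above both shNull libraries. ATP5A1, the alpha subunit of the catalytic head, was at 1211 and 928 CPM in shSETD8 and at 809 and 727 CPM in shNull, or 1069 ± 199.7 and 768 ± 58.3 CPM by group (SD, n = 2 each). The groups did not overlap, and shSETD8 replicate 1 stood apart as the highest library. The log2 fold change was 0.48 ± 0.15 (SE), with an unadjusted p of 0.0243, an adjusted p of 0.424 in edgeR and one of 0.130 in DESeq2. The fit without shSETD8 replicate 2 gave 0.66, and the lowest value with a library left out was 0.27. ATP5B, the beta subunit that holds the catalytic sites, was at 1226 and 1386 CPM in shSETD8 and at 1178 and 1159 CPM in shNull, a log2 fold change of 0.16 ± 0.10 (SE, adjusted p = 0.578, edgeR). Here shSETD8 replicate 2 was the highest library, and the value was 0.068 without it and 0.24 without shSETD8 replicate 1.

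The other head and stalk subunits had estimates on both sides of 0. ATP5D, the delta subunit of the central stalk, was at 153.9 and 152.9 CPM in shSETD8 and at 134.4 and 137.1 CPM in shNull, without overlap. ATP5C1, the gamma subunit, was at 250.8 and 278 CPM in shSETD8 and at 296 and 273 CPM in shNull, and was the one of the 5 F1 subunits with an estimate below 0, at -0.11 ± 0.10 (SE). The 4 peripheral stalk subunits (ATP5F1, ATP5H, ATP5J and ATP5O) all had estimates above 0, with a median of 0.12. The 3 small membrane subunits ATP5I, ATP5J2 and ATP5L had both shSETD8 libraries above both shNull libraries. This separation was found in 22.9% of all tested genes. None of these 3 subunits had an unadjusted p under 0.05, and their lowest adjusted p was 0.544 (edgeR). ATP5S, which the naming rule caught and which encodes a coupling factor, was at 12.66 and 11.98 CPM in shSETD8 and at 14.5 and 13.7 CPM in shNull, a log2 fold change of -0.20 ± 0.15 (SE).

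**Figure D3:**
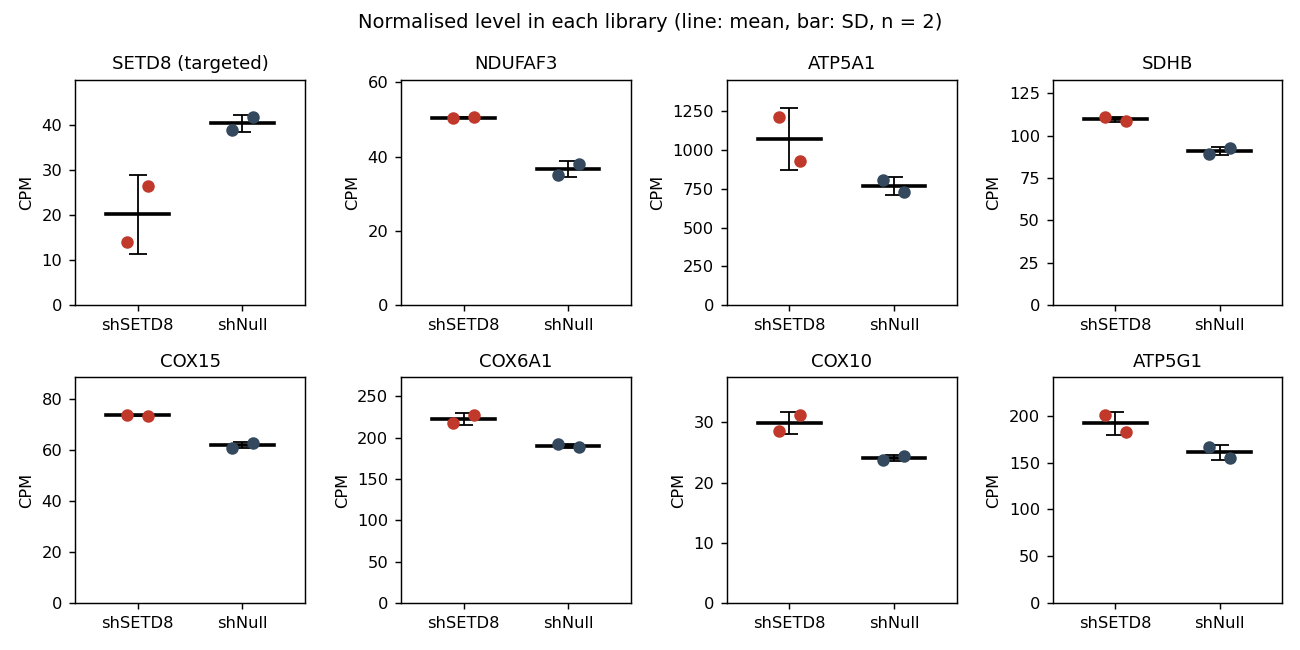
Dots are the CPM of each library for SETD8 and for the 7 members with an unadjusted edgeR p under 0.05, with the mean as a line and the SD as a bar (n = 2 each) and axes that start at 0. In all 7 members both shSETD8 dots lie above both shNull dots, and levels run from 28.6 and 31.2 CPM in shSETD8 against 23.8 and 24.5 CPM in shNull for COX10 to 1211 and 928 CPM in shSETD8 against 809 and 727 CPM in shNull for ATP5A1. The 7 were picked by p in these same data, so their separation adds nothing to that p. It was found in 22.9% of all tested genes.

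The rotating c ring of complex V is made from the products of ATP5G1, ATP5G2 and ATP5G3, which carry different import sequences before a shared mature protein. The last 225 bases of each coding sequence before the stop codon are shown because they cover that shared stretch, with positions where the genes differ in capitals (GENCODE v29 on GRCh38, 5′ to 3′ on the gene's strand, with the span of the whole coding region):
ATP5G1 (chr17:48893418-48895766, plus strand): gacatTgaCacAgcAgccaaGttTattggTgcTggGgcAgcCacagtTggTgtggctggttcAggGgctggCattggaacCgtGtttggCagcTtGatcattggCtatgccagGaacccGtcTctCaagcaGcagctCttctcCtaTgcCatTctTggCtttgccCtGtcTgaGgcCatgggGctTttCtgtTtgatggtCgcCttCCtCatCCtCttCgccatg
ATP5G2 (chr12:53665317-53672614, minus strand): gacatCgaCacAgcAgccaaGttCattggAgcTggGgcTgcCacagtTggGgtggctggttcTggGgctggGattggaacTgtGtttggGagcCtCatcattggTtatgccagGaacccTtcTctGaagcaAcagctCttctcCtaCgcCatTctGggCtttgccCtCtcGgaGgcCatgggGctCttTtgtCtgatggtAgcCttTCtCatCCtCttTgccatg
ATP5G3 (chr2:175178291-175181393, minus strand): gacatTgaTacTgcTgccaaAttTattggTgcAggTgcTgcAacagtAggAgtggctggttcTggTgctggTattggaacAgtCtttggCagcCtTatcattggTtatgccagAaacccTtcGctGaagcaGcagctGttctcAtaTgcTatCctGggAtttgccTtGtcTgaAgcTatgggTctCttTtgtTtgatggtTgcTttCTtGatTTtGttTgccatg
Over these bases ATP5G1 and ATP5G2 were 88.9% identical and each was 81.3% identical to ATP5G3. The differences were scattered, and at most 7.75% of a gene's 50-base coding windows occurred in another gene or pseudogene. ATP5G1 was at 201 and 183 CPM in shSETD8 and at 167 and 155 CPM in shNull, a log2 fold change of 0.25 ± 0.10 (SE, unadjusted p = 0.0477, adjusted p = 0.458, edgeR). ATP5G2 was at 338 and 387 CPM in shSETD8 and at 357 and 308 CPM in shNull, with 0.13 ± 0.12 (SE), and ATP5G3 at 328 and 431 CPM in shSETD8 and at 383 and 380.2 CPM in shNull, with -0.0092 ± 0.15 (SE). Only for ATP5G1 among these genes did the groups not overlap, and the difference between the genes was not tested. Per kilobase of coding sequence the mean levels of ATP5G1, ATP5G2 and ATP5G3 were 471, 857 and 891 CPM in shSETD8 and 395, 786 and 896 CPM in shNull. Untranslated bases were left out of that length, so the genes are compared only roughly.

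The members also differed between libraries of the same group. Levels were higher in shSETD8 replicate 2 than in shSETD8 replicate 1 in 71 of 101 members (70.3%, against 49.3% of all tested genes), with a median difference of 0.11 on the log2 scale, beside -0.0057 over all tested genes. Among structural subunits this was so in 61 of 75, and in complex IV in 11 of 11, with a median of 0.26 there. Assembly factors were higher in shSETD8 replicate 2 in 7 of 16. Between the shNull libraries the members were higher in replicate 2 in 26 of 101, with a median difference of -0.07, and the structural subunits in 14 of 75. Over all tested genes this was so in 7292 of 14546, with a median difference of 0.00055. The spread of the members' log2 differences was 0.21 between the shSETD8 libraries and 0.12 between the shNull libraries (SD over members), beside 0.49 and 0.22 over all tested genes.

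Among the members with the widest gap between shSETD8 libraries was SDHA, described above, and NDUFB4, an accessory subunit of complex I, at 92.1 and 130.4 CPM in shSETD8 and 123.7 and 109.7 CPM in shNull. ATP5A1 went the other way. SETD8 was lower in shSETD8 replicate 1, and the regulator PPARGC1A, a coactivator of mitochondrial genes that was singled out after its values were seen, was at 5.49 and 16.5 CPM in shSETD8 and 7.25 and 8.47 CPM in shNull. The photoreceptor factor NRL was at 22.3 and 170.4 CPM in shSETD8 and 45.7 and 36.9 CPM in shNull. The part of these genes in the members' differences was not tested. The median difference between the shSETD8 libraries was 0.14, 0.07 and 0.11 in the shortest, middle and longest coding sequences (32 members each), and so did not follow coding length in order.

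**Figure D4:**
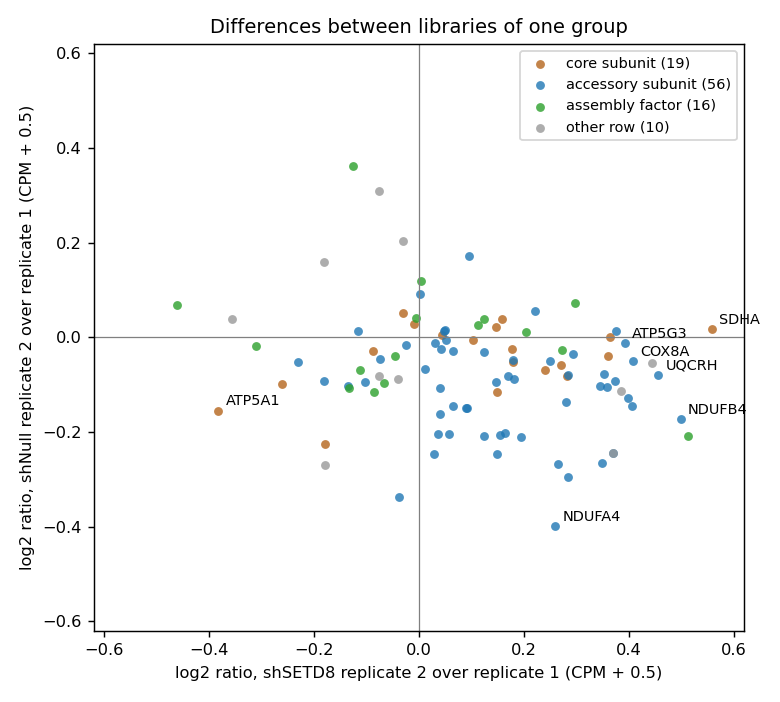
Each point is a member, placed by its log2 ratio of replicate 2 to replicate 1 in shSETD8 (horizontal) and in shNull (vertical), with 0.5 CPM added and colours for the role. Most structural subunits lie in the lower right, higher in shSETD8 replicate 2 and lower in shNull replicate 2, while assembly factors lie on both sides.

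Some rows were counted at levels far below those of their partners. Per kilobase of coding sequence the median structural subunit was at 198 CPM in shSETD8 and at 192 CPM in shNull. Counts were per gene and untranslated bases were left out of the length, so such levels compare genes only roughly. ATP5E, the epsilon subunit of complex V, was at 10.5 CPM per kilobase in shSETD8 and 8.97 in shNull, NDUFB8 at 12.9 in shSETD8 and 10.8 in shNull, and NDUFA11 at 18.8 in shSETD8 and 19.1 in shNull. The assembly factors COX16, COX17 and COX20 were at 7.49, 2.28 and 4.84 CPM per kilobase in shSETD8 and at 6.02, 2.95 and 5.10 in shNull. In GENCODE v29, 82.5% of the 50-base coding windows of NDUFB8, 70.9% of NDUFA11 and 74.7% of COX16 lie also in an overlapping gene. For COX20, 56.4% lie in an overlapping gene and 69.8% in genes elsewhere. ATP5E and COX17, also counted low, share 14.4% and 31.4% with a gene elsewhere and none with an overlapping gene. NDUFA7, NDUFV2 and UQCR11 share all of theirs with an overlapping gene and were counted at usual levels. The counts were made on another genome build, and the part of shared sequence in these levels was not tested. Of the 7 members with an unadjusted edgeR p under 0.05, COX15 shares 78.0% of its windows with an overlapping gene. COX6A1 shares 45.3% with an overlapping gene and 64.0% with a gene elsewhere, and the others share at most 11.1%. The part of this sharing in their fold changes was not tested either. Of the 96 members with a coding sequence, the 43 with no shared window had a median log2 fold change of 0.12, with 34 above 0, and the 53 with some shared window one of 0.084, also with 34 above 0.

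Promoter sequence was examined for motifs that are known in respiratory chain genes. RefSeq promoters on GRCh38.p14, from 250 bases before to 50 after the start site, matched 83 of the 101 members. On either strand, the NRF1 motif (GCGC, any base, then TGCGC) was present in 21.7% of member promoters, the ETS motif CCGGAAG, which GABPA binds, in 28.9%, and the YY1 motif AAGATGG in 22.9%, beside 11.5%, 18.6% and 7.43% of the promoters of tested genes and 6.28%, 10.7% and 6.06% of all 27305 promoters in the table. The motifs do not contain one another. Promoters of SDHB and COX10, which carry ETS matches, and of NDUFAF3, which has none of the 3 motifs, are shown as examples. They were taken from the 7 members with an unadjusted edgeR p under 0.05, and not by rank of p. SDHB and COX10 also have a YY1 match that reaches into the bases after the start site, which are not printed. Of the members in that group not shown, ATP5A1 and ATP5G1 have none of the 3 motifs, and COX15 and COX6A1 have an ETS match. The 250 bases before the start site are given 5′ to 3′ on the gene's strand, with matches in capitals:
SDHB (chr1:17054033-17054282, minus strand): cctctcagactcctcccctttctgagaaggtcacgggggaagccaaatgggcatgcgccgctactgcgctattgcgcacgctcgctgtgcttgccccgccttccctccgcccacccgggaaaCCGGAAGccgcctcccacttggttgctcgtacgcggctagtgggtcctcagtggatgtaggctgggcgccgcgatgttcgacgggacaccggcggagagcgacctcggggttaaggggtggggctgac
COX10 (chr17:14069254-14069503, plus strand): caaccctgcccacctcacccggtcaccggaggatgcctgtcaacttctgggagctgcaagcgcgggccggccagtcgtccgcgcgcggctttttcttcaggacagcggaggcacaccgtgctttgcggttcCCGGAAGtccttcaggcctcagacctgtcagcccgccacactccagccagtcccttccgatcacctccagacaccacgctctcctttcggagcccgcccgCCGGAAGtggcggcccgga
NDUFAF3 (chr3:49020202-49020451, plus strand): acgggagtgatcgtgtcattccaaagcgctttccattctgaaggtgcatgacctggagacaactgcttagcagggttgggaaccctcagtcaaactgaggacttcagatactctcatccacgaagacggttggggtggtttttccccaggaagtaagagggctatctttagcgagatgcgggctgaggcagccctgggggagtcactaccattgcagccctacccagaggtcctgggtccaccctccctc
Members with an NRF1 match had a median log2 fold change of -0.0063 (18 members, 9 above 0), and members without one 0.12 (65 members, 50 above 0). For ETS the medians were 0.072 with a match (24 members, 18 above 0) and 0.12 without (59 members, 41 above 0). For YY1 they were 0.078 with a match (19 members, 14 above 0) and 0.10 without (64 members, 45 above 0). Differences between members with and without a match were not tested. A match describes letters in this window and not a bound site.

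Genes of neighbouring functions were described from further lists. None of them held a gene called by edgeR, where the share over all tested genes was 0.0%. The 8 other chain subunits had a median log2 fold change of 0.047 with 7 above 0, among them C14orf2, a small subunit of complex V, at 115 and 108.4 CPM in shSETD8 and 94.9 and 88.1 CPM in shNull (0.29 ± 0.10, SE, unadjusted p = 0.0270, adjusted p = 0.427, edgeR). The 37 other assembly factors had a median of 0.096 with 23 above 0. PET100, which helps to assemble complex IV, was at 34.4 and 36.3 CPM in shSETD8 and at 50.3 and 42.1 CPM in shNull (-0.38 ± 0.13, SE, adjusted p = 0.436, edgeR), and SURF1, another complex IV factor, at 38.8 and 36.8 CPM in shSETD8 and at 32.4 and 28.0 CPM in shNull (0.32 ± 0.12, SE, adjusted p = 0.458, edgeR). Factors of the same complex thus had estimates on both sides of 0.

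The 19 genes of coenzyme Q synthesis and electron transfer to ubiquinone had a median of 0.063 with 13 above 0. DHODH, a pyrimidine enzyme that passes electrons to ubiquinone, was at 32.5 and 33.9 CPM in shSETD8 and at 25.1 and 27.1 CPM in shNull (0.35 ± 0.11, SE, adjusted p = 0.424, edgeR). The 21 regulators of mitochondrial transcription and biogenesis had a median of 0.061 with 13 above 0 and none with an unadjusted p under 0.05. GABPA was at 39.1 and 38.5 CPM in shSETD8 and at 45.8 and 43.8 CPM in shNull (-0.21 ± 0.10, SE), and SSBP1, which coats single-stranded mitochondrial DNA, at 147 and 136 CPM in shSETD8 and at 123 and 119 CPM in shNull (0.22 ± 0.09, SE). The 15 carriers and channels had a median of 0.086 with 10 above 0, with VDAC3, a channel of the outer membrane, at 173 and 183 CPM in shSETD8 and at 153 and 150.2 CPM in shNull.

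The 26 genes of the tricarboxylic acid cycle and pyruvate dehydrogenase had a median of 0.031 with 17 above 0. PDK3, a kinase that switches pyruvate dehydrogenase off, stood apart with 8.89 and 10.4 CPM in shSETD8, beside 21.7 and 21.7 CPM in shNull, with a log2 fold change of -1.17 ± 0.15 (SE). Its unadjusted p was 0.00047 and its adjusted p 0.320 in edgeR, while DESeq2 called it at an adjusted p of 1.87e-06, the only DESeq2 call in these lists, beside 1.88% of all tested genes. OGDH, a subunit of the oxoglutarate dehydrogenase complex, was at 195 and 220.7 CPM in shSETD8 and at 169 and 149 CPM in shNull (0.39 ± 0.11, SE, adjusted p = 0.405, edgeR). MPC2, part of the mitochondrial pyruvate carrier, was at 31.3 and 34.2 CPM in shSETD8 and at 26.4 and 23.6 CPM in shNull (0.39 ± 0.12, SE, adjusted p = 0.424, edgeR). For OGDH and MPC2 both shSETD8 libraries were above both shNull libraries, and for PDK3 both were below.

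**Figure D5:**
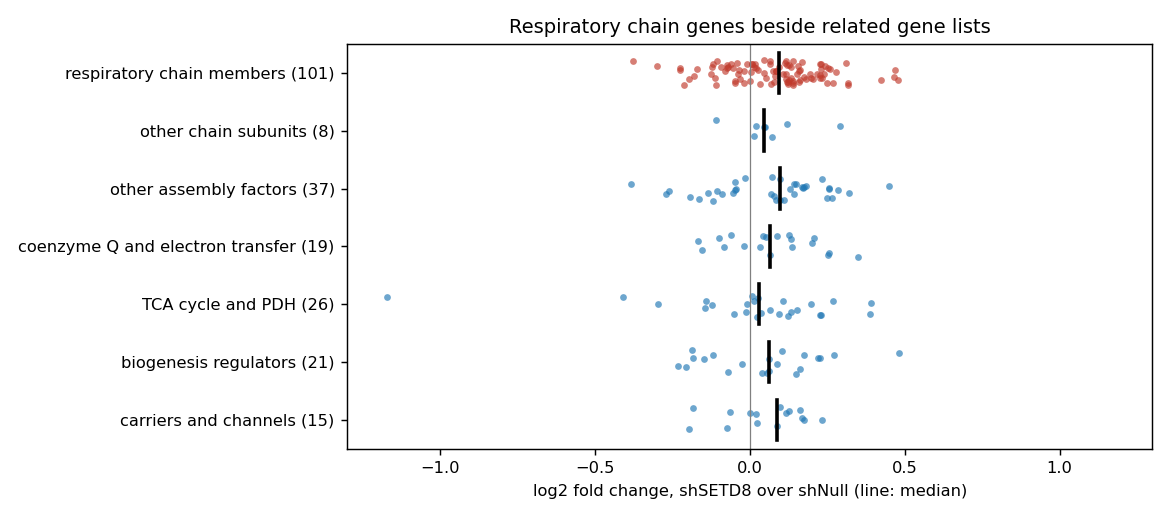
Points are log2 fold changes, shSETD8 over shNull, of the members (top, red) and of the genes of 6 related lists (blue), with the number of genes in brackets and the median as a black line. The medians lie between 0.031 and 0.096, and PDK3 at -1.17 is the point furthest from 0.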

How the data were processed

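Stranded poly(A) libraries from 4 cultures of D458 cells were sequenced as single reads of 50 bases, per the labels' protocols and the series text. The authors deposited whole-number counts per gene, not normalised, over 16839 rows. Per the submitters' processing notes, the build was hg19 and the software was STAR 2.4.0.1, Trimmomatic 0.36, DESeq 1.32.0 and FastQC 0.10.1. The sources used here do not name the counting program or its strand setting. Rows with no symbol, or with a date in its place, held 0.429% to 0.490% of counts, and 2 count columns that match no sample were not used. Chi-square per gene between replicates averaged 71.0 in shSETD8 and 16.3 in shNull (medians 11.8 and 2.79), so neither pair differed by as little as sampling noise.

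Libraries were grouped by the treatment label, 2 in each group. Testing used the quasi-likelihood F test of edgeR 4.0.16 in R 4.3.3 after filterByExpr (14546 genes kept, 2293 removed) and TMM scaling, with Benjamini-Hochberg adjustment over all tested genes at 0.05. All 101 members passed that filter. The SE of a log2 fold change is its size divided by the root of F. The members and gene lists were chosen with earlier results of these data known. Named members are those with an unadjusted p under 0.05, the highest and lowest in each complex with a mean of at least 1 CPM, DESeq2 calls, and isoforms or paralogs, with up to 3 genes of lowest p in each related list. Other members are named as examples of their role, chosen after their values were seen. Alternatives were DESeq2 1.42.0, its size factors in edgeR, the likelihood ratio test, limma-voom (limma 3.58.1), no filter, a threshold of 0.01, 10 or more counts in all 4 libraries, structural subunits alone and each library left out. The steps were tested on simulated counts.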

Additional observations from a re-analysis of the deposited data

How the results depend on the processing

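The edgeR likelihood ratio test called 247 of all tested genes, and DESeq2 called 274, with 1 member and 1 gene of the tricarboxylic acid cycle list; the likelihood ratio test also called 1 gene of that list. DESeq2 size factors in edgeR, limma-voom, no filter on low counts and a threshold of 0.01 called 0 members. The median over members was 0.095 to 0.102 under the other tools and filters, and 0.114 over structural subunits alone. With each library left out in turn, edgeR called 0 to 2550 of all tested genes and 0 to 7 members; the cause was not tested. A group then had 1 library, assumed to vary as much as the other. In those fits the members' median lay between 0.024 and 0.137, with 56 to 78 members above 0. The complex medians lay between -0.0011 and 0.10 (I), -0.14 and 0.20 (II), -0.060 and 0.11 (III), 0.086 and 0.244 (IV), and 0.095 and 0.172 (V). Called genes ran from 0 to 1 of 8 other chain subunits and from 0 to 7 of 37 other assembly factors. They ran from 0 to 4 of 26 tricarboxylic acid cycle genes and from 0 to 2 of 21 biogenesis regulators. The 4 came without shSETD8 replicate 1, where 9.55% of all tested genes were called. The other highest counts came without shSETD8 replicate 2, where that share was 17.2%. These counts do not measure the spread between shSETD8 clones. Of 28 named genes, SETD8 included, 19 kept their sign in every such fit. The 9 that did not were SDHA (-0.24 to 0.32), SDHC (-0.16 to 0.080), SDHD (-0.12 to 0.15), COX18 (-0.28 to 0.019), COX7A2 (-0.24 to 0.12), COX7A2L (-0.060 to 0.31), COX7B (-0.26 to 0.13), COX8A (-0.14 to 0.27) and ATP5G3 (-0.22 to 0.17). Of the 19, 11 moved by over 1.5 times: SETD8 (-1.53 to -0.61), ATP5A1 (0.27 to 0.66), ATP5B (0.068 to 0.24), ATP5G2 (0.020 to 0.23), UQCRC1 (0.12 to 0.28), UQCRHL (-0.46 to -0.0056), COX19 (0.29 to 0.62), COX6B1 (-0.035 to -0.0065), NDUFA4 (0.13 to 0.53), NDUFA4L2 (0.18 to 0.72) and NDUFA6-AS1 (-0.56 to -0.083). In an alternative added after seeing the data, the lower shSETD8 sum of complex V subunits minus the higher shNull sum was -2.24 CPM without ATP5A1, beside 399 CPM with it. No paired analysis was possible because replicate numbers were given in record order and tie no libraries together. With 2 libraries a group, differences as small as those of most members could not be separated from the spread between clones, and depth was not tested as a limit.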
